A study of Mus musculus with 2 samples.

Results

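Resting CD4 T cells are here the barcodes of mouse peripheral blood that carried a CD3 transcript and a Cd4 transcript but no transcript of Cd8, of the B cell receptor genes Cd79a and Cd79b, or of S100a4, which is high in activated and memory T cells. Each barcode stands for 1 droplet, and transcripts were counted as unique molecular identifiers (UMIs), 1 per captured RNA molecule. A barcode was kept with 200 to 6000 detected genes, under 10% of UMIs from mitochondrial genes and under 20% from the haemoglobin genes Hba and Hbb. It then had to hold at least 1 UMI of Cd3d, Cd3e or Cd3g, at least 1 of Cd4, and 0 of Cd8a, Cd8b1, Cd79a, Cd79b and S100a4. These measured UMI counts chose the members, which were selected on no other value, so the levels of those genes are not findings. The rule was met by 177 of 36612 barcodes: 122 of 16700 in the wt library and 55 of 19912 in the db/db library.

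The study measured peripheral immune cells of male C57BLKs/J mice at 21 weeks of age, either wild-type (wt) or db/db, by 10x Genomics droplet sequencing of RNA 3′ ends. The db/db strain lacks the signalling form of the leptin receptor, encoded by Lepr, in every cell of the body, and is known for obesity and diabetes. Per the labels there were 3 mice per genotype and 200 µl of blood per group, and red cells were lysed before loading. Each genotype gave 1 library, and the barcodes are not assigned to mice, so no difference between genotypes has a replicate check and no p-value is given. All intervals below are exact 95% intervals that cover counting error only, binomial for shares and Poisson for levels and their ratios. Lepr had 0 UMIs in the resting CD4 barcodes of both libraries, which allows, counting 0 as up to 3 barcodes, a share with a UMI of up to 2.46% of the 122 wt barcodes and 5.45% of the 55 db/db barcodes. These values do not check the genotype labels.

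CD4 T cells recognise peptides on MHC class II molecules through the T cell receptor, whose signal passes through the CD3 chains. Before they meet antigen they circulate between blood and lymph nodes as small, quiescent cells: CCR7 guides them into lymph nodes, the sphingosine phosphate receptor S1PR1 lets them out again, and the transcription factor KLF2 keeps these genes on. Their survival depends on interleukin-7, read by the receptor IL7R together with the common gamma chain IL2RG, and on BCL2, which blocks cell death. TCF1 (encoded by Tcf7) and LEF1 are transcription factors that mark T cells that have not differentiated.

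The label fits the marker genes that the rule did not use. Igfbp4, an insulin-like growth factor binding protein used as a marker of naive CD4 cells, stood at 695 CPM (UMIs scaled to a library total of 1000000; 614 to 784) in wt against 784 CPM (639 to 951) in db/db. In B cell barcodes (Cd79a or Cd79b present, no CD3) the same gene stood at 0.987 and 1.44 CPM. Lef1 reached 925 CPM in wt against 684 CPM in db/db, and Tcf7 661 and 522 CPM. Of 7 genes of the naive state, among them Ccr7, Lef1, Tcf7 and Klf2, at least 3 were detected in 111 of 122 wt barcodes (91.0%) and 49 of 55 db/db barcodes (89.1%), and every resting CD4 barcode held at least 1. A wt barcode held 1 to 38 UMIs of these genes (median 14.5) and a db/db barcode 1 to 27 (median 11). The constant genes of the gamma-delta receptor (Trdc, Tcrg-C1, Tcrg-C2, Tcrg-C4), the innate-like T cell factor Zbtb16 and the natural killer receptor Ncr1 had 0 UMIs in both libraries. Cd4 and Cd3g, the remaining marker genes, were part of the rule.

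**Figure D1:**
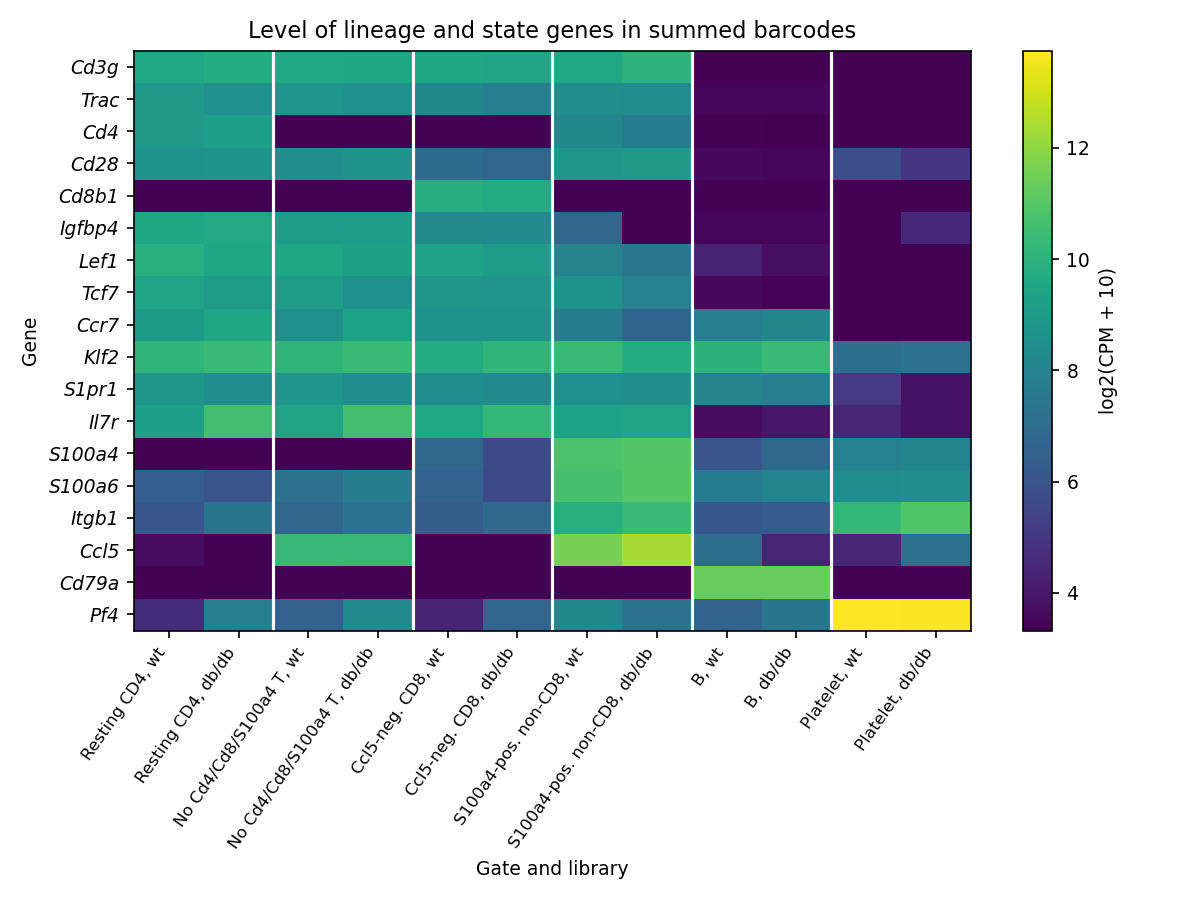
Heat map of summed transcript levels as log2(CPM + 10) for 18 lineage and state genes (rows) in 6 sets of barcodes, each split into wt and db/db (columns), with colour from low (dark) to high (yellow). The resting CD4 columns carry Igfbp4, Lef1, Tcf7, Ccr7 and Klf2, while Cd8b1, S100a4 and Cd79a are dark there because the rule set them to 0.

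Most barcodes passed the Cd4 threshold by the smallest margin. Cd4 was present as 1 UMI in 87 wt and 40 db/db barcodes and as 2 or more in 35 and 15. The barcodes just outside, with 0 UMIs of Cd4 but otherwise meeting the rule, numbered 147 in wt and 113 in db/db. Those outside barcodes had fewer UMIs (medians 2645 and 1814) and a summed level of the 7 naive genes of 4406 CPM in wt against 4527 CPM in db/db, against 4984 and 4942 CPM in the barcodes with 1 Cd4 UMI. They also held more effector transcripts: 7 effector and memory genes summed to 1790 and 1732 CPM outside, and to 266 and 400 CPM in the barcodes with 1 Cd4 UMI. The S100a4 threshold removed fewer barcodes, 4 with 1 UMI and 9 with 2 or more in wt, and 0 and 3 in db/db.

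Few resting CD4 barcodes held several regulatory or effector genes, after the rule had already removed those with S100a4. Foxp3, the defining factor of regulatory T cells, was detected in 1 of 122 wt barcodes (0.820%) and 2 of 55 db/db barcodes (3.64%). At least 2 of the 4 regulatory genes Foxp3, Il2ra, Ctla4 and Ikzf2 were found together in 7 wt (5.74%) and 3 db/db barcodes (5.45%). At least 2 of 7 effector genes were found in 15 wt (12.3%) and 7 db/db barcodes (12.7%). The genotypes were close in the shares with at least 2 genes, and the intervals of the genotypes overlap for the other shares. Trbc1 and Trbc2, the constant genes of the receptor beta chain, were detected together in 62 wt and 23 db/db barcodes. Trbc2 without Trbc1 was seen in 51 wt and 26 db/db barcodes, and Trbc1 without Trbc2 in 3 and 3. Trbc1 and Trbc2 are 71.6% identical over the last 400 bases of their transcripts with a shared run of 45 bases, so their split is uncertain.

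Resting CD4 barcodes differed from Ccl5-negative CD8 T barcodes (Cd8a or Cd8b1 present, no Cd4, no Ccl5) by a short list of genes. S100a4 was not limited in this set, called CD8 barcodes below, so the sets were not chosen by the same rule. Of 2817 genes with at least 20 UMIs over the pair of gates in each library, 10 (0.355%) were at least 2-fold higher on the log2(CPM + 10) scale in resting CD4 barcodes in both libraries, and 24 (0.852%) were at least 2-fold lower. These counts include Cd4, Cd8a and Cd8b1, which the rule used, and are a description. Cd28, the costimulatory receptor, stood at 405 CPM in wt against 415 CPM in db/db resting CD4 barcodes and at 116 and 94.2 CPM in CD8 barcodes. The tetraspanin gene Tspan32 stood at 306 and 315 CPM against 62.0 and 37.7 CPM. Pecam1, an adhesion molecule of the immunoglobulin family, and the integrin subunit Itga6 were on the same side, as was Igfbp4 with 288 and 295 CPM in CD8 barcodes. On the other side, the cytotoxic granule gene Nkg7 had 1 wt UMI and 0 db/db UMIs in resting CD4 barcodes, but 431 and 433 CPM in CD8 barcodes. Plac8, Cst7, Ctsw and the killer cell receptor gene Klrd1 were also lower in resting CD4 barcodes. The UMI minimum was counted over both sets together. A gene nearly absent from resting CD4 barcodes could pass it only through CD8 barcodes, and was then bound to be lower. Nkg7, Plac8 (3 wt and 0 db/db UMIs against 67 and 72) and Cst7 (1 and 0 against 34 and 27) were such genes. How many of the 24 lower genes passed in this way was not counted.

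A pair of neighbouring Ly6 genes split between the lineages. Ly6c1 stood at 136 CPM in wt against 330 CPM in db/db resting CD4 barcodes and at 3.35 and 3.14 CPM in CD8 barcodes. Ly6c2 stood at 2.61 and 7.68 CPM in resting CD4 barcodes and at 446 and 320 CPM in CD8 barcodes. Both encode the surface antigen Ly6C. The last 400 bases of their transcripts are 98.2% identical with a shared run of 124 bases, so the assignment of 3′ reads to 1 or the other is uncertain.

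The S100a4-positive T barcodes without Cd8 numbered 28 in wt and 15 in db/db, of which 13 and 3 held a Cd4 UMI. Ccl5, a chemokine of effector cells, stood there at 3100 and 5261 CPM, so this is not a set of effector CD4 cells alone. Against this set, 1191 genes could be compared. Of these, 28 (2.35%) were at least 2-fold higher in resting CD4 barcodes in both libraries and 63 (5.29%) at least 2-fold lower. Of 18 measured genes of the naive and quiescence list, 15 were higher in resting CD4 barcodes in wt and 18 in db/db, beside 519 and 534 of all 1191 genes. Lef1 stood at 925 and 684 CPM against 240 and 164 CPM, and Satb1, a chromatin organiser of T cells, at 734 and 853 CPM against 229 and 140 CPM. Bach2, a repressor of effector genes, and Dapl1 were also higher. All 14 measured genes of the effector and memory list were lower in resting CD4 barcodes in both libraries, beside 672 and 657 of all 1191 genes. S100a6 stood at 75.8 and 53.8 CPM against 1681 and 2011 CPM, Lgals1 (galectin-1) at 54.9 and 46.1 against 1244 and 1520 CPM, and the integrin gene Itgb1 at 60.1 and 154 against 906 and 1356 CPM. Because S100a4 chose both sets, genes that follow it were bound to differ. The UMI minimum was also counted over both sets together. A gene nearly absent from resting CD4 barcodes could pass it only through the S100a4-positive set, and was then bound to be lower. Nkg7, with 1 wt and 0 db/db UMIs against 34 and 32, was such a gene. How many of the 14 effector and memory genes passed in this way was not counted. The counts of both lists are therefore a description. S100a9, a neutrophil gene, headed the higher list through single barcodes: 114 of its 191 wt UMIs and 30 of its 34 db/db UMIs came from 1 barcode each.

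The libraries differed in quality within the resting CD4 barcodes, and these values stand beside every comparison of genotypes that follows. Summed UMIs were 382619 in wt and 130151 in db/db. A wt barcode held 752 to 5907 UMIs (median 3062) and a db/db barcode 688 to 4772 (median 2309), with medians of 1210 and 1006 genes. Median mitochondrial shares were 4.42 and 4.63%, and median haemoglobin shares 0.996 and 1.72%. No doublet caller was run. Of all barcodes, 91 sequences occurred in both libraries, 6 after the quality limits and 0 among the resting CD4 barcodes.

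Gm42418, a predicted gene that overlaps a ribosomal RNA repeat, divided the db/db barcodes. In wt it took 0.865% to 12% of a barcode's UMIs (median 2.70%), and 1 of 122 barcodes lay under 1%. In db/db it took 0.116 to 13.4% (median 2.39%), and 21 of 55 barcodes (38.2%) lay under 1%. The db/db barcodes under 1% had more UMIs (median 2776 against 1850 in the other 34) and fewer mitochondrial transcripts (4.02 against 5.35%). Of the other db/db barcodes, 75.3% of CD8 and 87.4% of B barcodes lay under 1%. Levels in both sets of db/db barcodes are given below for several genes, and where they are not given the sets may differ too.

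Platelet transcripts were carried by more db/db barcodes. At least 2 UMIs of 18 platelet genes were found in 7 of 122 wt (5.74%, 2.34 to 11.5%) and 18 of 55 db/db barcodes (32.7%, 20.7 to 46.7%). The highest load was 19 UMIs in a wt and 77 in a db/db barcode. Summed, the platelet genes stood at 170 CPM in wt against 1629 CPM in db/db, or a ratio of 9.59 (7.23 to 12.9). Of the 18 genes, 4 had no UMI in wt and 1 had none in db/db. The platelet chemokine gene Pf4 had 6 wt and 28 db/db UMIs, and Gng11, Nrgn and Ctla2a had log2 ratios of 3.06, 3.18 and 3.11. In B barcodes Pf4 was detected in 7.36% of wt and 19.2% of db/db barcodes. Without the barcodes holding 2 or more platelet UMIs, 115 wt and 37 db/db barcodes remained, and the log2 ratios of Il7r, Bcl2, Txnip and Tsc22d3 were 1.59, 1.34, 1.21 and 1.19.

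**Figure D2:**
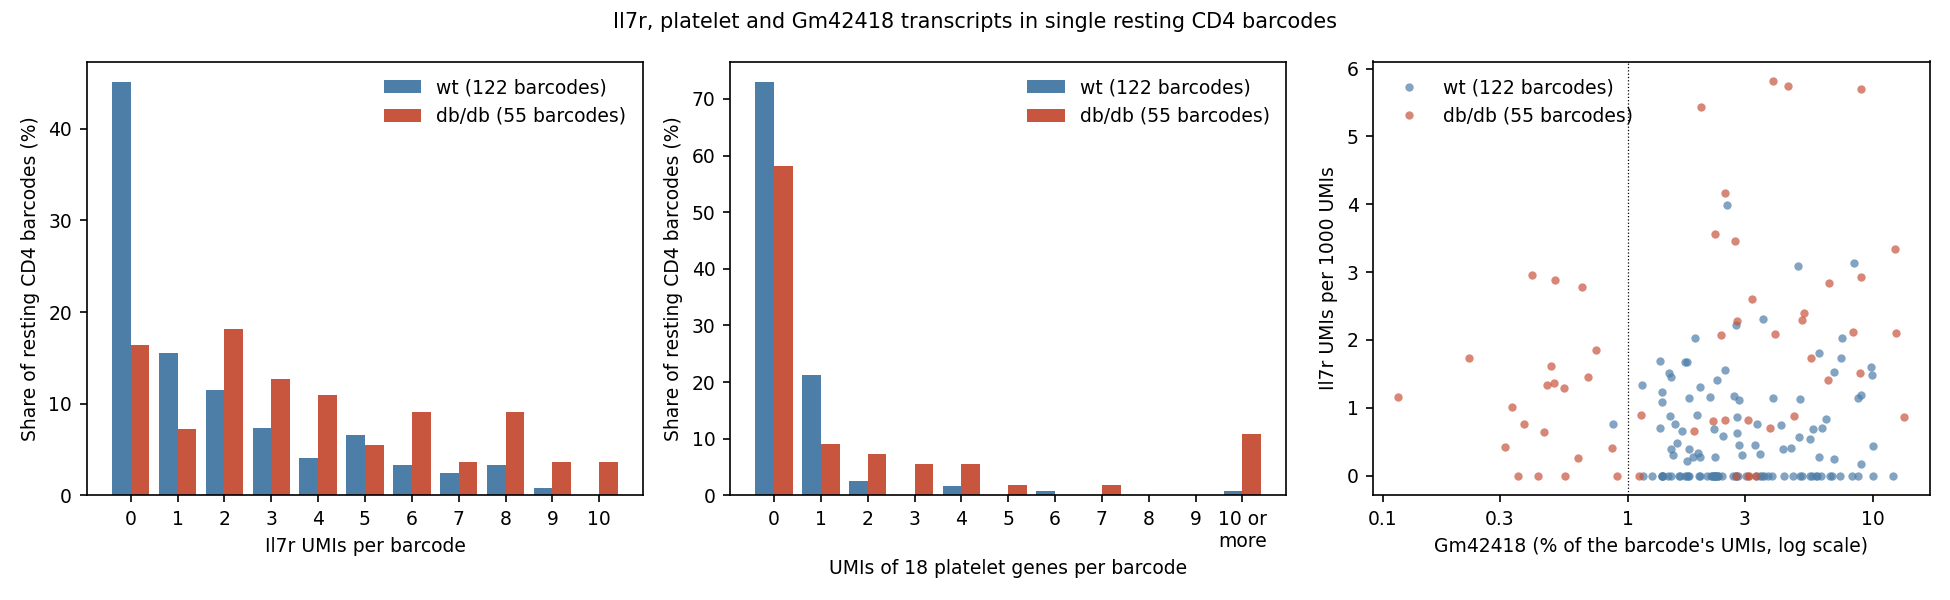
Left, Il7r UMIs per resting CD4 barcode, and centre, UMIs of 18 platelet genes per barcode, both as the share of the 122 wt and 55 db/db barcodes at each count. Right, each point is a barcode, with its Gm42418 share of UMIs (log axis, dotted line at 1%) against its Il7r UMIs per 1000 UMIs; 21 db/db barcodes but 1 wt barcode lie left of the line.

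Resting CD4 barcodes made up a smaller share of T cells in the db/db library. At equal depth the interval of the ratio held both 1 and the value before thinning. They were 122 of 468 T barcodes in wt (26.1%, 22.1 to 30.3%) and 55 of 341 in db/db (16.1%, 12.4 to 20.5%), or a ratio of 0.619 (0.442 to 0.857). Of all barcodes within the quality limits they were 3.35% in wt and 1.40% in db/db. The rule needs 1 UMI of Cd4, which is easier to meet in a deeper barcode. Every barcode within the quality limits with a CD3 UMI was therefore thinned to 1000 UMIs. Of the T barcodes, 3 wt and 18 db/db were shallower and were left out. The UMI thresholds of the rule were then applied again, so barcodes could leave or enter, and the thinned sets are not the same barcodes. The rule was met by 48 of 450 T barcodes after thinning (10.7%, 7.97 to 13.9%) and 27 of 291 (9.28%, 6.20 to 13.2%). That ratio was 0.870 (0.522 to 1.42), whose interval holds 1 and also the 0.619 found with all UMIs. The thinned counts are too few to separate these values. Set against the Ccl5-negative CD8 barcodes alone, resting CD4 barcodes were 47.3% of the pair in wt and 38.2% in db/db, and 29.8 and 30.3% after thinning. CD8 barcodes with Ccl5, a chemokine of effector cells, took 6.41% of wt and 19.6% of db/db T barcodes.

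**Figure D3:**
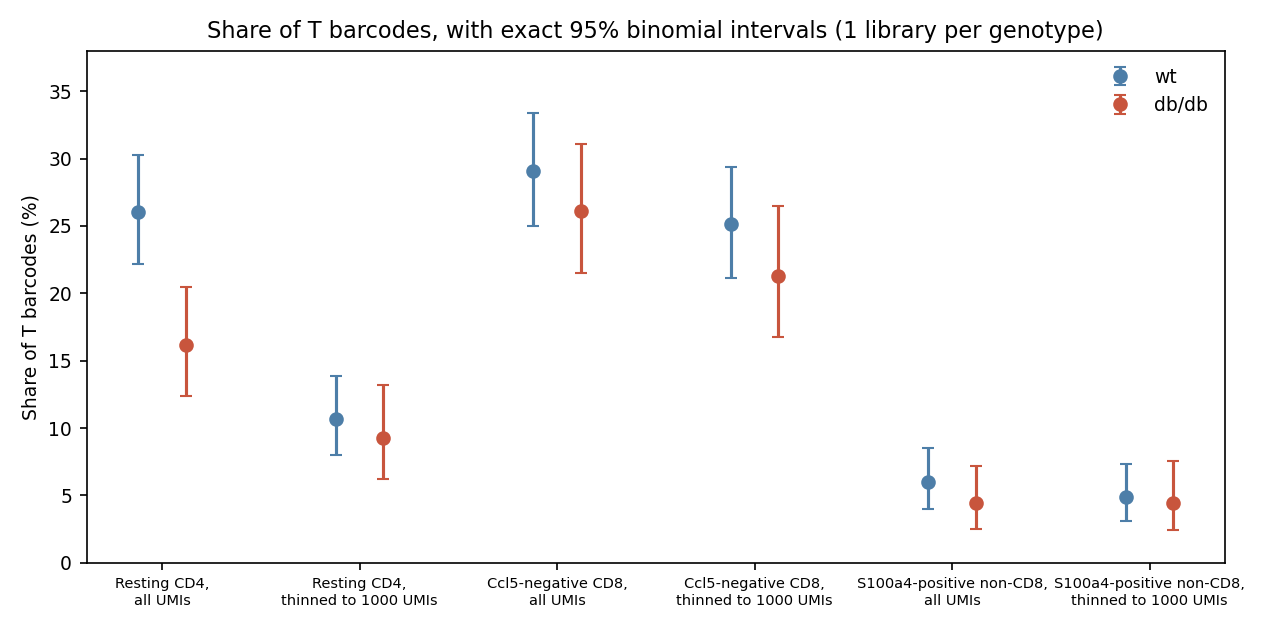
Share of T barcodes (vertical axis, %) that were resting CD4, Ccl5-negative CD8 or S100a4-positive without Cd8, with all UMIs and after thinning to 1000 UMIs; points are the libraries and bars exact 95% binomial intervals. The resting CD4 points are 26.1 and 16.1% with all UMIs and 10.7 and 9.28% after thinning.

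Few genes of the resting CD4 barcodes were past 2-fold between the genotypes. Among 3352 genes with at least 20 UMIs over both libraries, the median log2 ratio of db/db over wt, taken on log2(CPM + 10), was 0.01, and the middle of the distribution ran from -0.34 to 0.33. By any amount, 1693 of the 3352 genes (50.5%) were higher in db/db and 1659 lower. At least 2-fold higher in db/db were 91 genes (2.71%), and at least 2-fold lower were 141 (4.21%). With TMM scaling, which shifts the median of all genes to -0.09, the counts were 68 higher and 189 lower, and without the barcodes holding 2 or more platelet UMIs they were 75 and 185 of 2943 genes. These counts include genes whose counting interval spans no change. The genes named below are the 12 highest and 12 lowest of the 48 higher and 68 lower genes that had at least 30 UMIs in their higher library, a ratio interval that excludes 1 and a level of at least 10% of that in any reference set of other blood cells. The genes that met the UMI and level limits alone were not counted, and the intervals were not adjusted for many genes. The 48 and 68 are therefore a description. They cannot be compared, because 30 UMIs is a higher CPM in the smaller db/db sum (130151 UMIs) than in wt (382619).

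**Figure D4:**
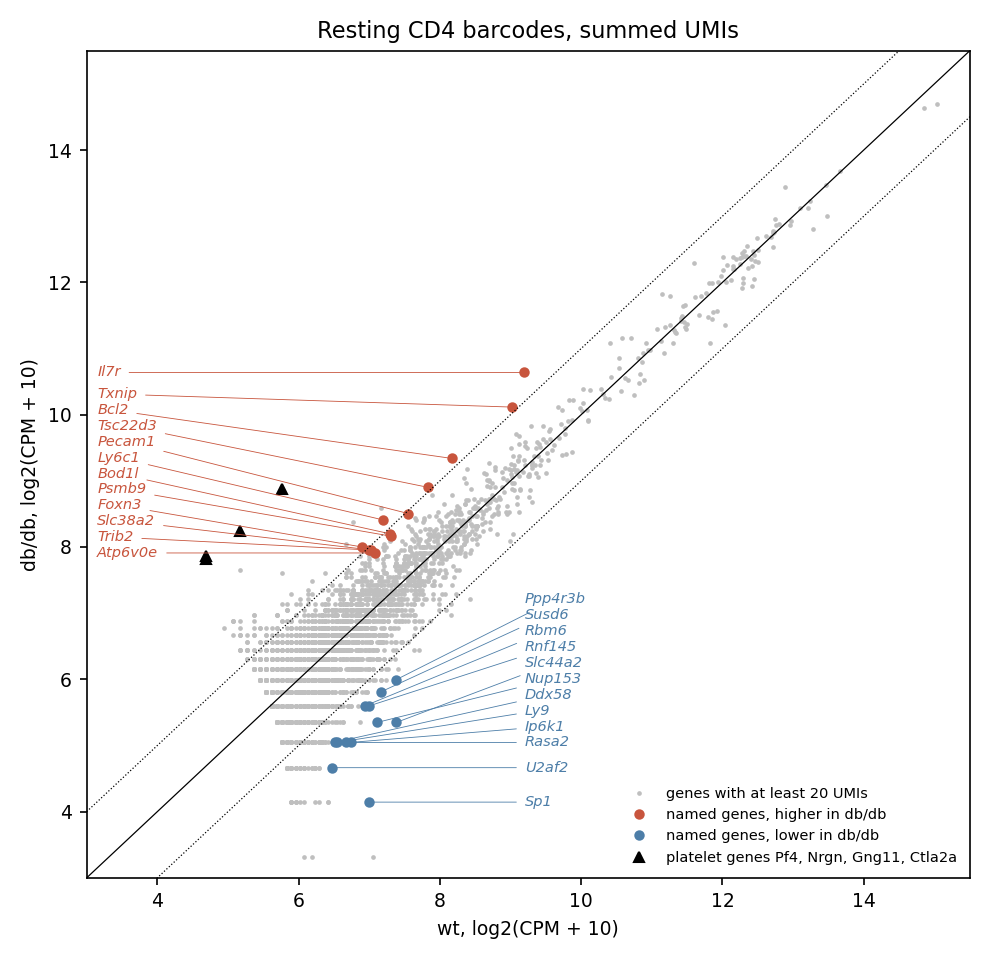
Each point is a gene in the summed resting CD4 barcodes, with log2(CPM + 10) in wt on the horizontal and in db/db on the vertical axis; the solid line marks equality and the dotted lines a 2-fold difference. Il7r, Txnip and Bcl2 lie above the upper dotted line, and the 4 platelet genes (triangles) lie about 3 log2 units above the line of equality.

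Il7r, the receptor for the survival cytokine interleukin-7, was the highest of the named genes in db/db. It had 220 wt and 206 db/db UMIs, or 575 CPM (502 to 656) and 1583 CPM (1374 to 1814), or a ratio of 2.75 (2.27 to 3.34). It was detected in 67 of 122 wt barcodes (54.9%) and 46 of 55 db/db barcodes (83.6%). In B barcodes, which should lack it, it was detected in 0.613% and 1.06% at median depths of 2230 and 2178 UMIs. A wt barcode held 0 to 9 UMIs (median 1) and a db/db barcode 0 to 10 (median 3). Among the barcodes that met the rule after thinning to 1000 UMIs, it was detected in 15 of 48 (31.3%) and 18 of 27 (66.7%). The level differed within db/db: 1107 CPM (861 to 1400) in the barcodes with Gm42418 under 1% and 2021 CPM (1697 to 2389) in the others, both above the wt level. In the T barcodes with 0 UMIs of Cd4 that otherwise met the rule, Il7r stood at 669 CPM in wt against 1607 CPM in db/db. The rise was thus not particular to the barcodes with a Cd4 UMI. In CD8 barcodes Il7r was also higher in db/db, at 1196 against 745 CPM, with a log2 ratio of 0.68 beside the 1.45 of resting CD4 barcodes. In the S100a4-positive T barcodes without Cd8 it stood at 655 and 678 CPM, with a log2 ratio of 0.05. The differences between these ratios were not tested. Il7r lies on chromosome 15 at 9505788 to 9530176 of GRCm38.

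Bcl2, the inhibitor of cell death that interleukin-7 signalling is known to sustain, was higher too. It had 106 wt and 83 db/db UMIs, or 277 CPM (227 to 335) and 638 CPM (508 to 791), or a ratio of 2.30 (1.71 to 3.10). It was detected in 41.0% and 61.8% of barcodes. Among db/db barcodes with Gm42418 under 1% its level was 433 CPM (285 to 630), which overlaps the wt interval, and in the others 826 CPM (624 to 1073). In CD8 barcodes the values were 364 and 694 CPM. In the T barcodes with 0 UMIs of Cd4 that otherwise met the rule they were 430 and 825 CPM. The pro-death gene Bcl2l11 (18 and 14 UMIs, log2 ratio 1.04) and the survival gene Mcl1 (165 and 76 UMIs, 0.43) were also higher in db/db. Of 9 measured genes of the apoptosis and survival list, 6 were higher and 3 lower, beside 50.5% higher of all genes. Past 2-fold were 2 higher and 0 lower, beside 2.71% and 4.21% of all genes.

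Txnip and Tsc22d3, which glucocorticoid hormones are known to induce in lymphocytes, were higher in db/db. TXNIP binds thioredoxin and restrains glucose uptake, and its gene responds to sugar; TSC22D3, also called GILZ, is a mediator of glucocorticoid action. Txnip had 195 and 143 UMIs, or 510 CPM (441 to 586) in wt against 1099 CPM (926 to 1294) in db/db, or a ratio of 2.16 (1.73 to 2.69). This ratio was alike in the db/db barcodes under and over 1% Gm42418, at 1058 and 1136 CPM. It was similar in other lymphocytes: the log2 ratio was 1.09 here, 1.02 in CD8 barcodes and 0.98 in B barcodes. In the T barcodes with 0 UMIs of Cd4 that otherwise met the rule, Txnip stood at 562 and 1123 CPM and Tsc22d3 at 248 and 415 CPM. Tsc22d3 stood at 217 CPM (173 to 269) in wt against 469 CPM (359 to 602) in db/db, or a ratio of 2.16 (1.53 to 3.04). Its log2 ratios in CD8 and B barcodes were 0.51 and 0.55, and in the S100a4-positive T barcodes without Cd8 it was -0.30 on 24 and 9 UMIs. In the db/db barcodes with Gm42418 under 1% it stood at 353 CPM (221 to 534), which overlaps the wt interval.

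The list of 23 glucocorticoid response genes, chosen with earlier results of these data known, had 11 measured members. Of these 8 were higher and 3 lower in db/db, beside 50.5% higher of all genes. The median log2 ratio was 0.44 against 0.01 for all genes, and 4 were past 2-fold, beside 2.71% of all genes. Those 4 were Il7r, Cebpb (12 UMIs in each library), Txnip and Tsc22d3. Nfkbia, the inhibitor of NF-kB, stood at 125 and 231 CPM, or a ratio of 1.84 (1.12 to 2.96). Btg1, Klf13 and Pnrc1, which had more UMIs than Nfkbia, had log2 ratios of -0.15, -0.14 and 0.02. The classical target Fkbp5 had 10 and 4 UMIs, too few to place. The median of the list was 0.33 in CD8 and 0.27 in B barcodes, and it was 0.15 in the db/db barcodes with Gm42418 under 1% against 0.82 in the others.

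The 250 bases before the start site of Txnip are shown because this gene was higher in db/db in resting CD4, CD8 and B barcodes alike. They were taken from the RefSeq table for GRCm38.p6, chr3:96557707-96557956, plus strand, 5′ to 3′, with matches to 2 motifs in capitals.
Txnip: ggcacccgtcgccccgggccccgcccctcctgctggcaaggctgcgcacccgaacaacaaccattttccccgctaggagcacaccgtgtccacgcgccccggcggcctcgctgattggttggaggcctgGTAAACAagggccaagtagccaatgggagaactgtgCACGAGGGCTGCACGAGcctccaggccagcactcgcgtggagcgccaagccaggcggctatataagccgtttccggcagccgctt
The first run in capitals is GTAAACA, a FOXO motif, starting 121 bases before the start site. The other is a match to the carbohydrate response element, CACGNG repeated after 5 bases of any kind (N is any base), starting 85 bases before it. On either strand and in windows of the same length, GTAAACA occurs in 1040 of 32851 RefSeq promoters (3.17%) and the carbohydrate response element in 15 (0.0457%). The glucocorticoid receptor motif, AGAACA and TGTTC with 3 bases between them, is not in this window, and occurs in 0.0304% of promoters. None of the 3 motifs was found in the windows of Il7r, Bcl2 or Tsc22d3. A match is a description of letters and does not show that a factor was bound.

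The rest of the naive programme lay on both sides of equality. Of 20 measured genes of the naive and quiescence list, 12 were higher and 8 lower in db/db, beside 50.5% higher of all genes. The median log2 ratio was 0.06 (-0.04 with TMM scaling), and 2 (Il7r and Bcl2) were past 2-fold, beside 2.71% of all genes. Ccr7 stood at 502 CPM in wt against 715 CPM in db/db, or a ratio of 1.42 (1.10 to 1.83). Klf2 stood at 1106 and 1322 CPM, or a ratio of 1.20 (0.995 to 1.43). Igfbp4 differed by less than its counting error. The factors that mark the undifferentiated state leaned the other way. Lef1 had a ratio of 0.739 (0.579 to 0.935) and was detected in 86.9% of wt and 65.5% of db/db barcodes. Tcf7 had a ratio of 0.790 (0.595 to 1.04), and Foxo1, which drives Il7r and Klf2 expression, 0.645 (0.365 to 1.08). The receptor alpha chain gene Trac stood at 478 and 361 CPM, or a ratio of 0.755 (0.536 to 1.05), while Trbc2 and Cd28 had ratios of 1.11 and 1.02 with intervals that hold 1.

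Among the cytokine receptors Il7r was higher in db/db, and Il2rg and Il4ra were lower. Of 16 measured genes of the list of cytokine receptors and common gamma chain signalling, 7 were higher and 9 lower, beside 50.5% higher of all genes. The median of the list was -0.04, and past 2-fold were 1 higher and 2 lower, beside 2.71% and 4.21% of all genes. Il2rg, the chain that IL7R pairs with to signal, stood at 274 CPM in wt against 131 CPM in db/db, or a ratio of 0.476 (0.267 to 0.799). Its level in the db/db barcodes with Gm42418 under 1% was 48.1 CPM and in the others 206 CPM, and after thinning the log2 ratio was 0.022. Il4ra, the interleukin-4 receptor chain, stood at 112 and 46.1 CPM, or a ratio of 0.410 (0.143 to 0.968). Socs3, an inhibitor of cytokine and leptin signalling, stood at 91.5 and 184 CPM, or a ratio of 2.02 (1.15 to 3.49). Stat3, which transmits those signals, stood at 191 and 99.9 CPM, or a ratio of 0.524 (0.266 to 0.952). The 15 measured genes of the list of insulin, PI3K and leptin signalling had a median of -0.02. Of these 7 were higher and 8 lower, beside 50.5% higher of all genes.

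**Figure D5:**
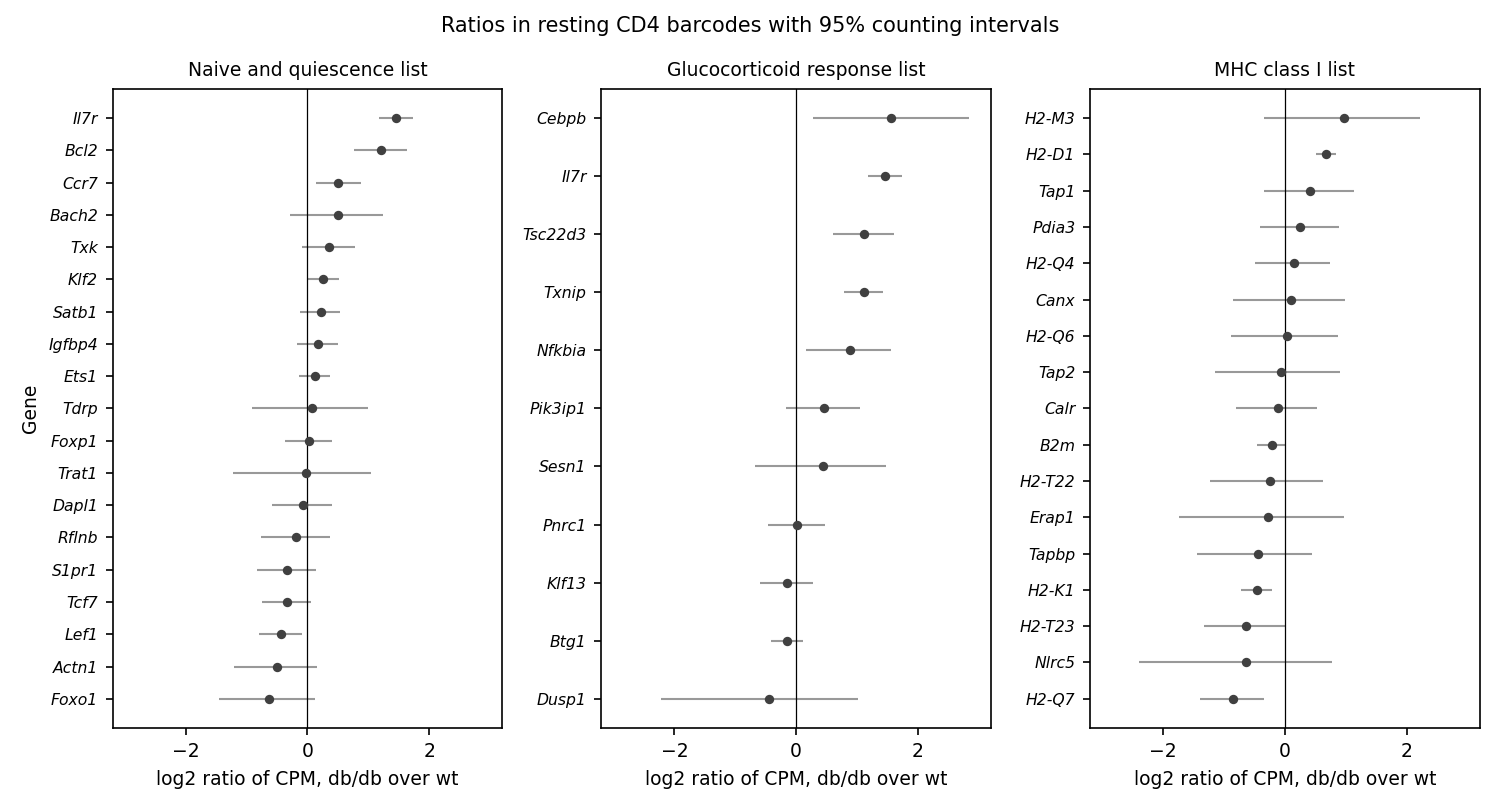
Measured genes of the naive and quiescence (19 of 20 shown), glucocorticoid response and MHC class I lists, with the log2 ratio of CPM in db/db over wt without a pseudocount (points) and its exact 95% counting interval (bars); the vertical line marks equal levels. Il7r, Bcl2, Txnip, Tsc22d3 and H2-D1 lie to the right with intervals clear of the line, and H2-K1, H2-Q7 and Lef1 to the left.

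The classical MHC class I genes differed in direction. H2-D1, detected in every resting CD4 barcode, stood at 2258 CPM (2110 to 2414) in wt against 3611 CPM (3292 to 3953) in db/db, or a ratio of 1.60 (1.43 to 1.79). H2-K1 stood at 1712 CPM (1583 to 1848) in wt against 1245 CPM (1060 to 1452) in db/db, or a ratio of 0.727 (0.608 to 0.865). H2-Q7 stood at 512 and 284 CPM, or a ratio of 0.555 (0.380 to 0.792). These genes belong to a family of closely related copies, whose reads may be divided between members. Over the 17 measured genes of the list the median was -0.11, with 7 higher, 10 lower and none past 2-fold. Of all genes 50.5% were higher. H2-D1 was higher in db/db in CD8 (2042 and 2935 CPM) and B barcodes (1960 and 2502 CPM) too.

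Interferon response genes were found on both sides, without a common shift. Of 37 measured genes, 14 were higher and 23 lower in db/db, beside 1693 higher and 1659 lower of all 3352 genes. The median of the list was -0.19. Past 2-fold were 2 higher (Ly6c1 and Herc6, beside 2.71% of all genes) and 3 lower (Ddx58, Phf11b and Slfn8, beside 4.21%). Ifi27l2a stood at 544 and 361 CPM, or a ratio of 0.664 (0.473 to 0.915), but without the platelet-bearing barcodes its log2 ratio was -0.06. Ms4a4b, a membrane protein of T cells, stood at 1652 and 2282 CPM, or a ratio of 1.38 (1.20 to 1.59). Its db/db level was 1892 CPM in the barcodes with Gm42418 under 1% and 2640 CPM in the others. Psmb9, a subunit of the immunoproteasome, stood at 149 and 277 CPM, or a ratio of 1.86 (1.19 to 2.87). After thinning the log2 ratio of Psmb9 was -0.47. In thinned barcodes the median of the list was 0.42 over 11 measured genes.

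The other named genes higher in db/db were of mixed function. Ly6c1 had 52 UMIs in 23 wt barcodes and 43 in 20 db/db barcodes, or a ratio of 2.43 (1.58 to 3.71), with up to 12 UMIs in 1 wt barcode. In thinned barcodes its log2 ratio was -0.85. Pecam1 stood at 178 and 353 CPM, or a ratio of 1.99 (1.34 to 2.93). Foxn3 (a forkhead repressor), Trib2 (a pseudokinase) and Slc38a2 (an amino acid transporter) had log2 ratios of 1.10, 0.96 and 0.93, and Bod1l, Psmb9 and Atp6v0e of 0.91, 0.85 and 0.83. Itgb1 had a ratio of 2.56 (1.33 to 4.87), but its 20 db/db UMIs came from 6 barcodes, it stood at 1914 CPM in platelet barcodes of db/db, and in thinned barcodes its log2 ratio was -0.36.

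The named genes lower in db/db were chosen by at least 30 wt UMIs and the lowest ratios. Their few db/db UMIs follow from that choice and from the smaller db/db sum, and are not a finding. Sp1, a general transcription factor, had 45 UMIs in 36 wt barcodes and 1 UMI in 1 db/db barcode, or a ratio of 0.0653 (0.00162 to 0.383). In CD8 barcodes Sp1 stood at 78.8 and 53.4 CPM, a log2 ratio of -0.49. Slc44a2, a choline transporter-like protein, had 60 UMIs in 42 wt against 4 in 4 db/db barcodes, or a ratio of 0.196 (0.0517 to 0.528), but a log2 ratio of 0.20 in CD8 barcodes. U2af2 (a splicing factor), Nup153 (a nuclear pore protein), Ip6k1, Rasa2 and Ly9 had 30 to 49 wt UMIs and 2 to 4 db/db UMIs, with log2 ratios from -1.50 to -1.80. Ddx58, the RNA sensor RIG-I, Rnf145, Ppp4r3b, Susd6 and Rbm6 had log2 ratios from -1.34 to -1.46. In thinned barcodes those of Ddx58 and Rnf145 were 0.085 and 0.21. None of the 12 exceeded 157 CPM in wt, so each rests on few molecules.

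Genes that set the CD4 fate and its helper functions were near the limit of detection. Zbtb7b (ThPOK), the factor that commits T cells to the CD4 lineage, had 26 wt and 3 db/db UMIs, or a ratio of 0.339 (0.0657 to 1.11). Gata3 had 26 and 6 UMIs, or a ratio of 0.678 (0.228 to 1.69), and Cd40lg, the helper ligand for B cells, 26 and 4, or a ratio of 0.452 (0.115 to 1.30). Among receptors of costimulation, Cd27 stood at 206 and 323 CPM, or a ratio of 1.56 (1.05 to 2.30). The db/db barcodes with Gm42418 under 1% held Cd27 at 208 CPM (111 to 357), the wt level, and the others at 428 CPM. Cd6, another such receptor, stood at 133 and 53.8 CPM, or a ratio of 0.404 (0.154 to 0.893). The integrin gene Itgal (LFA-1) stood at 146 and 69.2 CPM, or a ratio of 0.472 (0.205 to 0.962). Of the 13 measured effector and memory genes, 7 were higher and 6 lower, beside 50.5% higher of all genes. The median of these 13 genes was 0.05, and it was -0.44 in the db/db barcodes with Gm42418 under 1%. The regulatory T cell list had 3 measured genes of 16, too few to describe.

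Markers of other blood cells were present in the resting CD4 barcodes, and their part in the differences was not tested beyond the values given. The 17 B cell genes summed to 802 CPM in wt against 461 CPM in db/db. Of these, Ighm had 120 and 33 UMIs and was detected in 55.7% of wt and 43.6% of db/db barcodes. Igkc was detected in 18.9 and 10.9%, and Ms4a1 had 10 and 0 UMIs. The 16 neutrophil genes summed to 734 and 507 CPM and were concentrated in single barcodes. S100a9 had 191 and 34 UMIs and Csf3r 17 and 5, while Retnlg, Ngp and Camp were at 0 in both libraries. The 22 monocyte genes summed to 512 and 546 CPM. Psap had 69 and 15 UMIs and Ctss 44 and 21, while Csf1r had 1 UMI in each and Cd14 0. Lyz2 of the same list, the lysozyme gene of myeloid cells, was higher in db/db at 31.4 and 115 CPM, or a ratio of 3.67 (1.61 to 8.60), and 2 wt and 5 db/db barcodes held at least 2 of its UMIs. The 15 natural killer genes summed to 136 and 99.9 CPM. Tyrobp had 26 and 3 UMIs and Prf1 13 and 1, while Ncr1 and Klrb1c were at 0. Erythroid genes summed to 15208 and 22774 CPM, mostly haemoglobin, which the rule capped. Of 15 genes of the kidney proximal tubule, db/db barcodes held 22 UMIs in 7 barcodes, 15 of them in 1, and wt barcodes 2.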

How the data were processed

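The authors deposited raw UMI counts per gene and barcode, 1 library per genotype, made with Cell Ranger 3.0.2 on mm10 per the submitters' processing notes. The annotation and cell calling settings are not given in the sources used here. Tools were numpy 2.4.6, pandas 2.3.3 and scipy 1.17.1 under Python 3.11.15, and matplotlib 3.10.9. Where a symbol had several gene IDs, the ID with the most UMIs was used. UMIs were summed over the barcodes of a gate, scaled to CPM and compared as log2((CPM + 10)/(CPM + 10)). Ratios have exact conditional binomial intervals and, like levels, no pseudocount. With 1 library per genotype there was no test; the interval code was tested on simulated data. Genes with at least 20 UMIs over both libraries were compared. The 12 highest and 12 lowest genes that met the rule given with the results were named, and 10 in each direction against the other T cell gates. Reference gates of other blood cells were set by marker counts, and a named gene had to reach 10% of its highest level in any of them. Mitochondrial, ribosomal protein, haemoglobin, unnamed, variable-segment and sex-linked genes were not named; members of the gene lists could be named beyond the rule. The members, lists and rules were chosen with earlier results of these data known. Gene positions came from GENCODE M21, which held 30934 of the 31053 gene IDs. Alternatives changed the barcode limits, the gate thresholds, the depth (thinning), weighting, scaling (TMM with edgeR 4.0.16), the pseudocount, the UMI minimum and the denominator. Leaving out barcodes with platelet UMIs and splitting the db/db barcodes at 1% Gm42418 were chosen after seeing the data. Some genes of the lists enter the counts and medians but are not reported here by name.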

Additional observations from a re-analysis of the deposited data

Results flagged for a closer look

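For 2 genes the direction of the difference between genotypes was opposite in resting CD4 and B barcodes, with counting intervals on opposite sides of no change. The log2 ratio of db/db over wt for Pecam1 was 0.95 in resting CD4 barcodes and -0.19 in B barcodes. For Ms4a4b it was 0.46 in resting CD4 barcodes and -0.32 in B barcodes. Ms4a4b was scarce in B barcodes, with 35.7 CPM for the wt library and 26.6 CPM for the db/db library. Its levels in resting CD4 barcodes were 1652 and 2282 CPM. Whether B cells made these transcripts was not tested. With 1 library per genotype the difference in direction was not tested for either gene.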

How the results depend on the processing

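No paired analysis was possible because each genotype has 1 library, and leaving out a library leaves no comparison. The share of resting CD4 barcodes among T barcodes, 0.619 in db/db relative to wt, was 0.870 after thinning to 1000 UMIs and 0.418 over all barcodes within the quality limits. Genes past 2-fold, 91 higher and 141 lower, numbered 21 and 21 of 430 measured after thinning, 11 and 25 of 1293 with at least 50 UMIs, 595 and 914 of 10850 with at least 1 UMI, and 20 and 11 with a pseudocount of 50 CPM. With a pseudocount of 1 CPM 221 were lower, and with every barcode weighted equally 214. With db/db barcodes under 1% Gm42418 alone 334 of 2929 were lower, and with the others alone 241 of 3024; fewer barcodes enter these fits. After thinning the median of the interferon response list was 0.42, and with Gm42418 under 1% that of the effector and memory list was -0.44; the cause was not tested. After thinning, log2 ratios of Ly6c1 (-0.85), Psmb9 (-0.47), Ddx58 (0.085), Rnf145 (0.21), Il2rg (0.022) and Itgb1 (-0.36) changed sign, on few UMIs. The thinned values come from the 48 wt and 27 db/db barcodes that met the rule again, so both depth and members changed. Without barcodes with 2 or more platelet UMIs, Pf4 was at -0.88 and Nrgn at -0.16, since that choice removes their UMIs. Over 16 alternatives Il7r ran from 0.93 to 1.80, Bcl2 from 0.63 to 1.54, Txnip from 0.97 to 1.21 and Tsc22d3 from 0.68 to 1.47. Of the recomputed share, counts and medians of the 6 main lists, 136 values stayed within a set limit, and 16 did not. The limit was the counting interval for the share and 1.5 times for the counts. For a median it was set by the ratio interval of 1 middle gene of the list. That interval can be wide and is not an error of the median, so the 136 are not a measure of robustness. Depth limits genes under about 30 UMIs, where 3 UMIs in the db/db sum equal 23.1 CPM.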
